A study of Homo sapiens with 4 samples.

Results

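The 45 genes described here encode the proteins that detect DNA strand breaks, stop the cell cycle at them and repair them. They were taken by gene symbol from a list of homologous recombination, Fanconi, end joining and checkpoint genes by a rule that uses no measured value, although the list was drawn up with earlier results of these data known, and all 45 were found among the 58243 genes of each table. The RNA sequenced came from SH-SY5Y, a neuroblastoma cell line of human origin with neuron-like traits, and 4 libraries were made. Controls were 2 libraries of untreated cells, and the other 2 came from cells exposed for 8 h to sodium nitroprusside (SNP), a nitric oxide donor, whose RNA the labels describe as oxidized. The protocol text speaks of cells differentiated with retinoic acid and of several SNP doses, but gives neither the dose that was sequenced nor the state of these cells, and all 4 libraries share the line and the culture medium. Within a group the libraries are lettered a and b. Each treatment was done in triplicate within 1 experiment, per the labels, and whether a and b were separate cultures is not said, so the p-values measure only the spread between these libraries, which may be technical. In RNA from whole cultures, fewer cells of a kind and less RNA per cell cannot be told apart.

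Double-strand breaks are sensed by the MRE11-RAD50-NBN complex and the kinase ATM, while stretches of single-stranded DNA at stalled forks recruit ATR, and both kinases pass the signal on to CHEK2 and CHEK1. Broken ends are rejoined directly by the Ku proteins, DNA-PKcs and ligase IV, or are resected and copied from the sister chromatid by homologous recombination, which needs BRCA1, BRCA2 and their partners. The Fanconi pathway removes crosslinks between the strands by attaching ubiquitin to FANCD2 and FANCI, and PARP1, XRCC1 and ligase III mend nicks in 1 strand. Many of these genes are transcribed most in cells that are copying their DNA.

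The libraries held between 5613144 and 8056550 counts summed over genes, and between 19313 and 20789 genes had a count above 0. These sums are far below the 48.7 to 62.0 M reads that the RPKM values imply and the 40 M reads stated for each sample, and which reads were counted is not given in the sources used here. At this depth 3 counts correspond to between 0.372 and 0.534 counts per 1000000 counts (CPM), a floor that covers counting error only. Of 14759 genes that passed the filter on low counts, 3861 were called, that is, had an adjusted p-value under 0.05 in the quasi-likelihood test of edgeR with Benjamini-Hochberg adjustment over all 14759 genes. That is 26.2% of the genes tested, with 13.6% called higher in the SNP libraries and 12.6% called lower. The neuroblast markers fixed for the line were present except TH, the enzyme that starts catecholamine synthesis, which was listed at 0 in all 4 libraries. Of 8 blood and endothelial markers 6 were at 0 everywhere, and the 8 together summed to between 0.178 and 0.993 CPM.

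All 45 repair and checkpoint genes passed the filter, and 8 of them, or 17.8%, were called, against 26.2% of all genes. RNF168, RAD51C, CLSPN, RAD50, RNF8 and LIG4 rose, which is 6 of 45 or 13.3% against 13.6% of all genes. FANCD2 and BLM fell, which is 2 of 45 or 4.44% against 12.6% of all genes. Neither share of calls was above the share over all genes in this fit. The changes were small: the log2 fold changes ran from -0.51 to 0.62, none reached an absolute value of 1, and their median was -0.02 beside -0.0042 for all genes. Both SNP values lay above both control values for 13 of the 45, where all genes gave 31.7%, and below both for 17, where all genes gave 32.3%. The summed level of the 45 genes was 7564 and 7493 CPM in controls a and b and 7591 and 7346 in the SNP libraries a and b, so that the ranges of both groups overlapped. With libraries scaled by the read totals that the RPKM values imply, 7 members were called higher and 1 lower, and over all genes the split moved from 2002 higher and 1859 lower to 2085 higher and 1218 lower. Offsets for length and GC content gave 7 members higher and 7 lower, where all genes gave 2219 and 1994. With G-minus-C content added, 2 members were higher and 9 lower, where all 14759 genes tested gave 1479 and 1285. In that fit the share called lower was larger among the members than over all genes. The median log2 fold change of the members was 0.047 without control a and -0.064 without control b.

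**Figure D1:**
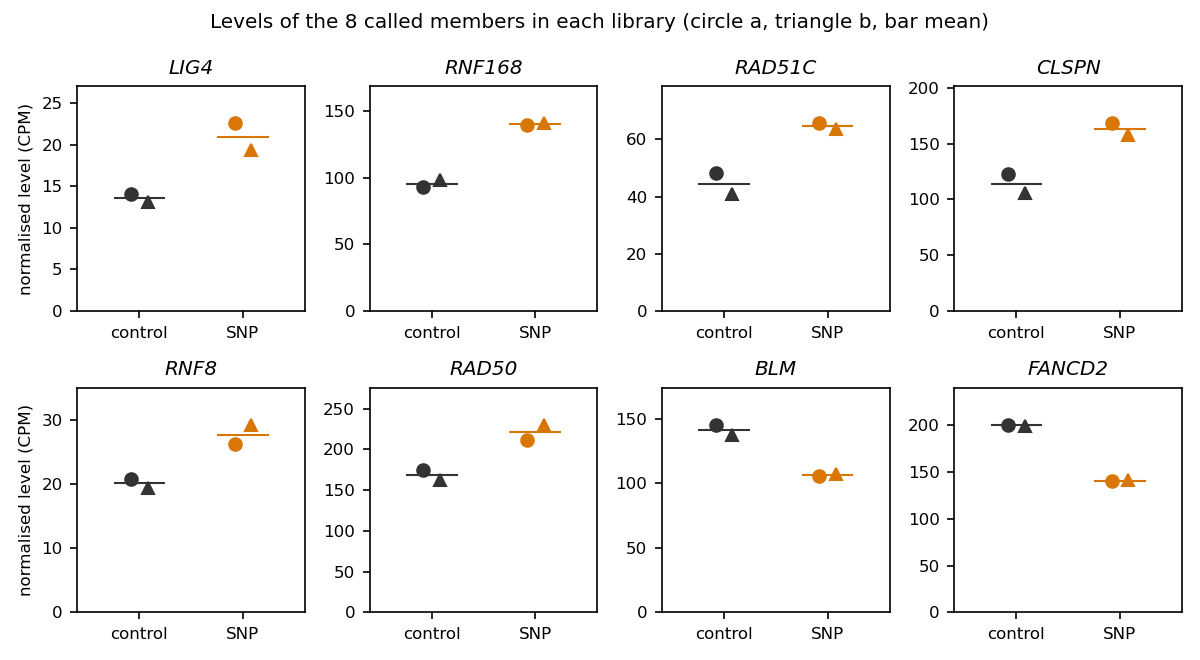
Level of the 8 called genes in each library in CPM on axes that start at 0, with circles for library a, triangles for library b and a bar for the mean of the group. LIG4, RNF168, RAD51C, CLSPN, RNF8 and RAD50 lie higher in both SNP libraries than in both controls, and BLM and FANCD2 lie lower in both.

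The DNA just upstream of 4 of the genes that changed is shown here so that promoters of members that fell, BLM and FANCD2, can be set beside those of members that rose, CLSPN and RAD51C. Each is the 250 bases before the RefSeq transcription start on GRCh38.p14, written 5′ to 3′ along the gene's own strand, with each CCAAT box, the binding word of the factor NF-Y, in capitals as CCAAT or as its reverse complement ATTGG. For BLM and FANCD2 the RefSeq start lies a short way inside the GENCODE gene. They span chr15:90717096-90717345 on the plus strand for BLM, chr3:10026187-10026436 on the plus strand for FANCD2, chr1:35769979-35770228 on the minus strand for CLSPN and chr17:58692323-58692572 on the plus strand for RAD51C.
BLM: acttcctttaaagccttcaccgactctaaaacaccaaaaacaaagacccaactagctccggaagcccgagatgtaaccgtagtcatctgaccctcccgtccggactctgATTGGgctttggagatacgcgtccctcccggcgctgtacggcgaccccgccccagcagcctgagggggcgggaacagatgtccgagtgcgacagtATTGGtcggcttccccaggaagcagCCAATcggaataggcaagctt
FANCD2: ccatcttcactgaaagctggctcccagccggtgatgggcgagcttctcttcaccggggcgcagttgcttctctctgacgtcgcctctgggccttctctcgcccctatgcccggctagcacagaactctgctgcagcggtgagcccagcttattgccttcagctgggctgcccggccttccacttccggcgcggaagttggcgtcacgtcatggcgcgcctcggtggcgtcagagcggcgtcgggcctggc
CLSPN: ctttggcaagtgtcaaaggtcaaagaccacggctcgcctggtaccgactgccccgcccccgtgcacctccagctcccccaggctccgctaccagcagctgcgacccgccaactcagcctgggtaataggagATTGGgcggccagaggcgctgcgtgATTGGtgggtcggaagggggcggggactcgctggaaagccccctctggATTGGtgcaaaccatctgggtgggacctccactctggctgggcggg
RAD51C: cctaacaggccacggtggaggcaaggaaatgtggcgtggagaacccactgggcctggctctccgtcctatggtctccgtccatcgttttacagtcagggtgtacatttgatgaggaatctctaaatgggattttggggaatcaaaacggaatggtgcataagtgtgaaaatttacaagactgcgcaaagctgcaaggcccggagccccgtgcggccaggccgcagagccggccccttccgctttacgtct
BLM, which fell, and CLSPN, which rose, each had 3 boxes, whereas FANCD2, which fell, and RAD51C, which rose, had none in this window. Over the 40 members with an upstream sequence in RefSeq, CCAAT was found on either strand in 17, or 42.5%, against 33.0% of 27305 promoters of the same length and 35.2% of the 10416 that belong to genes tested. The cell cycle word TTTGAA was found in 5 members, ATM, BRIP1, FANCC, MDC1 and XRCC1, or 12.5%, against 13.6% of all promoters and 8.22% of those of genes tested. Any of the E2F words TTTCCCGC, TTTGGCGC, TTTCGCGC and TTTGCCGC was found in FANCA and FANCC, or 5%, against 2.79% of all promoters and 4.36% of those of genes tested. None of the 8 called genes held an E2F word or TTTGAA there, and of the called genes only CLSPN, RNF8 and BLM held CCAAT. NBN, FANCI, RAD54B, XRCC5 and PRKDC had no entry. These matches describe letters only.

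Among the damage signalling kinases and checkpoint mediators, CLSPN rose and the other 5 genes did not pass the test. CLSPN encodes claspin, the adaptor that holds CHEK1 so that ATR can activate it (GRCh38 chromosome 1, 35720218 to 35769967, minus strand, 27 merged exons). Its level was 123 CPM in control a and 106 in control b, and it was 168 in SNP a and 158 in SNP b. Both SNP libraries were above both controls, with a gap wider than the spread inside either group. The log2 fold change was 0.51 (SE 0.108, adjusted p = 0.0014 in edgeR), or 1.42-fold. Without control b it was 0.41 and the call was lost (adjusted p = 0.0603). Offsets for the G-minus-C content of the transcripts, described at the end, turned it to -0.021 (adjusted p = 0.8907), and over all 16 alternative fits the adjusted p lay between 1.1e-04 and 0.9014.

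None of the 4 kinases was called. ATM, the kinase of double-strand breaks, measured 429 and 403 CPM in the controls and 412 and 391 in the SNP libraries. These ranges overlap, and the log2 fold change was -0.05 with a 95% interval from -0.24 to 0.14. ATR, the kinase of stalled forks, measured 196 and 201 CPM against 175 and 170, lower in both SNP libraries by a log2 fold change of -0.20 that missed the threshold (adjusted p = 0.1324). ATR was called lower in the 4 alternative fits with composition offsets and ATM in the 2 of them that include G-minus-C content. The effector kinases had overlapping groups: CHEK1 had 160 and 144 CPM in the controls and 152 and 148 with SNP, and CHEK2 had 28.5 and 21.1 against 29.6 and 18.8. The interval of the log2 fold change ran from -0.24 to 0.19 for CHEK1 and from -0.46 to 0.38 for CHEK2, the gene of the 6 with the fewest counts. TOPBP1, the scaffold that switches ATR on and the most abundant of the 6 per length, had 237 and 228 CPM in the controls and 259 and 232 with SNP, with an interval from -0.12 to 0.28 (adjusted p = 0.5916 in edgeR).

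**Figure D2:**
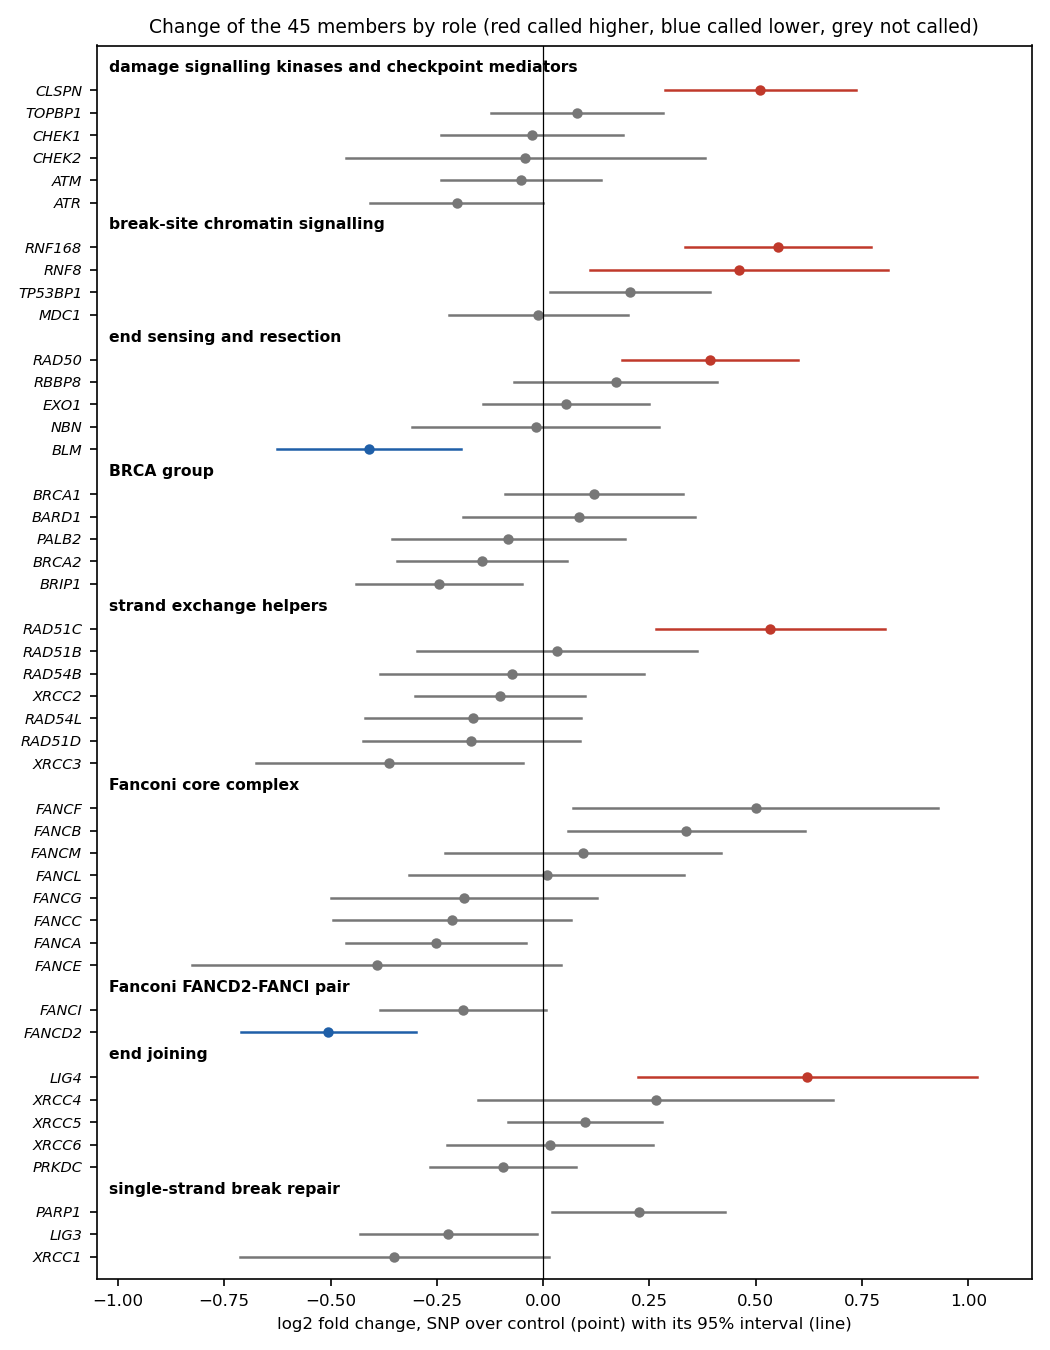
Log2 fold change of each of the 45 genes, SNP over control, as a point with its 95% interval as a line, grouped by role and ordered by size within it. Red marks the 6 genes called higher, blue the 2 called lower and grey the 37 not called, and every point lies between -0.51 and 0.62.

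Of the 4 genes that act in signalling on chromatin around a break, RNF168 and RNF8 rose, and TP53BP1 and MDC1 did not pass the test. RNF168, the ubiquitin ligase that marks H2A so that 53BP1 can bind (chromosome 3, 196468783 to 196503768, minus strand, 6 merged exons), was at 93.0 and 98.0 CPM in controls a and b and at 139 and 141 with SNP. The groups did not overlap, and libraries of a group differed by a few CPM. Its log2 fold change of 0.55 (SE 0.105, adjusted p = 5.7e-04 in edgeR) corresponds to 1.47-fold. Only the 2 fits with G-minus-C offsets ended its call (log2 fold change 0.23, adjusted p = 0.0812 without and 0.0711 with the replicate letter as a block, where all 16 fits spanned 5.6e-05 to 0.0812).

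RNF8, the ligase that acts first and brings in RNF168 (chromosome 6, 37353972 to 37394738, plus strand), was among the scarcest members at 20.8 and 19.4 CPM in the controls and 26.2 and 29.2 with SNP. Both SNP values were the higher ones, and the log2 fold change was 0.46 (SE 0.169, adjusted p = 0.0481 in edgeR), or 1.38-fold. That call was lost in 9 of the 16 alternative fits, including those without control a (adjusted p = 0.1443), without control b (0.2516) and without SNP b (0.1259), within a range from 0.0332 to 0.4592. TP53BP1, which shields broken ends from resection, had 339 and 358 CPM in the controls and 409 and 394 in the SNP libraries. It stood higher in both, with a log2 fold change of 0.20 (95% interval 0.02 to 0.39) that missed the threshold after adjustment (adjusted p = 0.1027). Of the exonic bases of TP53BP1, 3732 of 12991 also lie in TUBGCP4 on the opposite strand. MDC1, the scaffold that reads the phosphorylated histone at a break, was level at 147 and 143 against 143 and 144 CPM. The 4 genes summed to 594 and 621 CPM in the controls and 708 and 714 with SNP. Their median log2 fold change was 0.33, beside -0.0042 for all genes. With offsets for length, GC and G-minus-C content the median was 0.21, beside 0.0046 for all genes. In that fit MDC1 was the only gene of the group called, and it was higher, where 1479 of all 14759 genes were called higher.

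In end sensing and resection, RAD50 rose, BLM fell, and NBN, RBBP8 and EXO1 did not pass the test. RAD50, the long coiled-coil arm of the complex that tethers broken ends (chromosome 5, 132556019 to 132646344, plus strand, 29 merged exons), was at 175 and 162 CPM in controls a and b and at 212 and 230 with SNP. Both SNP libraries exceeded both controls, by a log2 fold change of 0.39 (SE 0.100, adjusted p = 0.0059 in edgeR), or 1.31-fold. Without control b the call was lost (0.34, adjusted p = 0.1062), as it was with G-minus-C offsets (0.18, adjusted p = 0.1497), within a range from 0.0015 to 0.1568 over the 16 fits. RAD50 shares 7784 of its 9771 exonic bases on the same strand with AC116366.3, annotated as a protein-coding gene. AC116366.3 had 475 and 348 counts in the controls and 801 and 557 with SNP, so the division of reads between these gene models is uncertain.

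BLM, the helicase that unwinds DNA for resection and takes apart joined chromatids (chromosome 15, 90717327 to 90816165, plus strand, 25 merged exons), had 145 and 138 CPM in the controls and 106 and 107 with SNP. The SNP libraries nearly coincided, well below both controls. The log2 fold change was -0.41 (SE 0.104, adjusted p = 0.0058 in edgeR), or 1.33-fold lower. It was no longer called without control a (-0.38, adjusted p = 0.0993) or when libraries were scaled by read totals taken from RPKM (-0.34, adjusted p = 0.0995), in a range from 4.5e-05 over the 16 fits. EXO1, a nuclease that resects ends and the most abundant of these 5 per length, had 227 and 226 CPM against 235 and 235. Although the groups did not overlap, the difference was minute, with a log2 fold change of 0.05 (95% interval -0.14 to 0.25, adjusted p = 0.7200). NBN, the partner of RAD50 that calls ATM, had 45.3 and 45.5 CPM in the controls and 49.7 and 39.9 with SNP, 1 above and 1 below. RBBP8, which encodes CtIP, the factor that starts resection, overlapped at 112 and 100 against 130 and 108 CPM.

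None of the 5 genes of the BRCA group was called. BRCA1, whose protein promotes resection, had 240 and 220 CPM in the controls and 268 and 233 in the SNP libraries, and its partner BARD1 had 66.0 and 56.8 against 72.0 and 58.3. In both, the lower SNP library lay inside the range of the controls. BRCA2, which acts after resection, measured 320 and 287 CPM against 283 and 267, with an interval of the log2 fold change from -0.34 to 0.06. PALB2, the bridge between BRCA1 and BRCA2, had 56.1 and 47.2 CPM against 48.5 and 49.4, with overlap. BRIP1, a helicase that binds BRCA1, was the most abundant of the group per length and showed its widest difference. It had 286 CPM in each control and 248 and 235 in the SNP libraries, lower in both by a log2 fold change of -0.25 (95% interval -0.44 to -0.05, adjusted p = 0.0575 in edgeR). That value lies just outside the threshold, and BRIP1 crossed it in 8 of the 16 alternative fits (range 2.3e-04 to 0.4620).

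Of the 7 genes that help strand exchange, RAD51B, RAD51C, RAD51D, XRCC2, XRCC3 and the RAD54 motors, RAD51C rose and the other 6 did not pass the test. RAD51C, a subunit shared by the larger and the smaller complex of these proteins (chromosome 17, 58692573 to 58735611, plus strand, 12 merged exons), was at 48.3 and 40.8 CPM in controls a and b and at 65.6 and 63.8 with SNP. The lower SNP library was still above the higher control. Its log2 fold change was 0.53 (SE 0.129, adjusted p = 0.0041 in edgeR), or 1.45-fold. The call was lost in 1 of 16 fits, that without control b (0.42, adjusted p = 0.1134, where the range began at 0.0010). With G-minus-C offsets RAD51C was still called higher.

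The partners of RAD51C were not called, and the difference between their changes and that of RAD51C was not tested. RAD51B had 34.2 and 27.0 CPM in the controls and 31.1 and 31.8 with SNP, which overlap. RAD51D had 58.8 and 59.1 against 53.8 and 51.1, and XRCC2, the most abundant of the 7 per length, had 210 and 209 against 192 and 198. The SNP libraries were the lower ones in both, with intervals of the log2 fold change from -0.42 to 0.09 for RAD51D and from -0.30 to 0.10 for XRCC2 (adjusted p = 0.4761). XRCC3, the partner of RAD51C in the smaller complex, was at 41.2 and 40.8 CPM in the controls and 28.2 and 35.7 in the SNP libraries. Both were lower, but the SNP libraries differed from each other by more than the nearer of them differed from the controls, and the adjusted p was 0.0819. Most exonic bases of XRCC3, 5756 of 7507, also lie in KLC1 on the opposite strand, and whether the counting used strand is not stated. Of the motors, which are translocases on DNA, RAD54L had 59.8 and 60.4 CPM against 52.4 and 54.8, lower in both, and RAD54B had 40.9 and 42.8 against 45.2 and 34.2, on both sides of the controls. RAD54B shares 3139 of 5313 exonic bases with FSBP on the same strand, so its counts are uncertain too.

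None of the 8 genes of the Fanconi core complex, the ubiquitin ligase that acts on FANCD2 and FANCI, was called, and they went both ways. FANCF and FANCB stood higher in both SNP libraries. FANCF, an adaptor of the complex and the member with the lowest control level per length, had 11.1 and 14.6 CPM in the controls and 19.1 and 17.0 with SNP, a log2 fold change of 0.50 whose interval ran from 0.07 to 0.93 (adjusted p = 0.0786 in edgeR). FANCB, which pairs with the ligase subunit, had 39.0 and 37.6 CPM against 46.7 and 50.2, a log2 fold change of 0.34 (adjusted p = 0.0689). Neither passed the threshold.

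FANCA, FANCC, FANCE and FANCG stood lower in both SNP libraries. FANCA, the most abundant of the core per length, had 199 and 214 CPM in the controls and 163 and 183 with SNP, a log2 fold change of -0.25 (95% interval -0.46 to -0.04, adjusted p = 0.0716 in edgeR). It shares 2302 of 9736 exonic bases with ZNF276 on the other strand. FANCE, the subunit that touches FANCD2, was scarce at 18.0 and 15.6 CPM against 11.2 and 14.5. Its interval was wide, from -0.83 to 0.04. FANCC, which pairs with FANCE, had 50.6 and 63.4 against 50.5 and 47.5 CPM, where the lower control almost met the higher SNP library, and FANCG, which binds FANCA, had 41.0 and 33.4 against 32.9 and 32.7. The remaining subunits overlapped between groups. FANCL, the ligase itself, had 30.4 and 27.3 CPM against 28.7 and 29.4, and FANCM, the translocase that anchors the core on DNA, had 35.9 and 27.9 against 34.5 and 33.8.

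FANCD2 fell, and it was the only called member that stayed called in all 16 alternative fits. It encodes the protein that is clamped on DNA once the core has attached ubiquitin (chromosome 3, 10026414 to 10101930, plus strand, 46 merged exons). The level was 199.9 CPM in control a and 198.8 in control b, and 140.1 in SNP a and 140.8 in SNP b. Libraries of a group agreed within about 1 CPM. With 2 libraries such close agreement is a poor measure of spread, and the SE of the fit, given next, is wider. The log2 fold change was -0.51 (SE 0.0987, adjusted p = 7.1e-04 in edgeR), or 1.42-fold lower, and the adjusted p over the alternatives lay between 1.5e-05 and 0.0295. Its pseudogene FANCD2P2 was listed at 0 in all libraries. FANCI, the partner in the clamp and the more abundant of both per length, had 336 and 328 CPM in the controls and 306 and 278 with SNP. It was lower in both by a log2 fold change of -0.19 (95% interval -0.38 to 0.01), which did not pass the test (adjusted p = 0.1504). The difference between the changes of FANCD2 and FANCI was not tested.

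Among the end joining genes LIG4 rose and the other 4 did not pass the test. LIG4 encodes ligase IV, which seals the joined ends (chromosome 13, 108207439 to 108218368, minus strand, 4 merged exons). It was at 14.0 and 13.1 CPM in controls a and b and at 22.5 and 19.3 with SNP. Both SNP libraries were higher, and the log2 fold change of 0.62 was the largest rise among the 45 genes (SE 0.192, adjusted p = 0.0205 in edgeR), or 1.54-fold. The call was lost in 8 of 16 fits. Of these, 4 were the fits with composition offsets, in which the log2 fold change was 0.40 with length and GC content and 0.23 with G-minus-C content added. The others were those without control a (adjusted p = 0.0740), without control b (0.1242) and without SNP a (0.0993) and the Wald test of DESeq2 (0.0991), in a range from 0.0086 to 0.3960. XRCC4, which holds ligase IV, was at 12.6 and 14.7 CPM against 17.1 and 15.7. Both SNP values were higher, with a log2 fold change of 0.26 and an interval from -0.15 to 0.68.

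The proteins that first grip a broken end include the most abundant members. Per length, in the deposited transcripts per 1000000 (TPM), the control means of XRCC5, PRKDC and EXO1 were 592, 444 and 257, while those of FANCF, RNF8 and LIG4 were 14.2, 14.4 and 14.6. XRCC5, the larger Ku subunit, had 704 and 671 CPM in the controls and 765 and 707 with SNP, where the lower SNP library was barely above the higher control (log2 fold change 0.10, 95% interval -0.08 to 0.28, adjusted p = 0.4411 in edgeR). XRCC6, the smaller Ku subunit, overlapped at 79.4 and 82.9 against 88.0 and 76.0 CPM. PRKDC, the DNA-PK catalytic subunit, had 1440 and 1473 CPM in the controls and 1417 and 1311 with SNP. Its log2 fold change of -0.09 had an interval from -0.27 to 0.08, the narrowest of the 45.

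Of the 3 single-strand break genes none was called. PARP1, which senses nicks and was the most abundant of them per length, had 280 and 287 CPM in the controls and 356 and 306 with SNP. Both SNP values were higher, but they differed from each other by more than the nearer one did from the controls, and the log2 fold change of 0.22 (95% interval 0.02 to 0.43) missed the threshold (adjusted p = 0.0958 in edgeR). XRCC1, the scaffold of nick repair, had 27.3 and 23.3 CPM against 18.6 and 21.1, with a log2 fold change of -0.35 (95% interval -0.71 to 0.01, adjusted p = 0.1484). LIG3, the ligase bound to XRCC1, had 171 CPM in each control and 149 and 144 with SNP, lower in both by a log2 fold change of -0.22 (adjusted p = 0.1057). Of the 12919 exonic bases of LIG3, 3754 are shared with RFFL on the other strand.

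**Figure D3:**
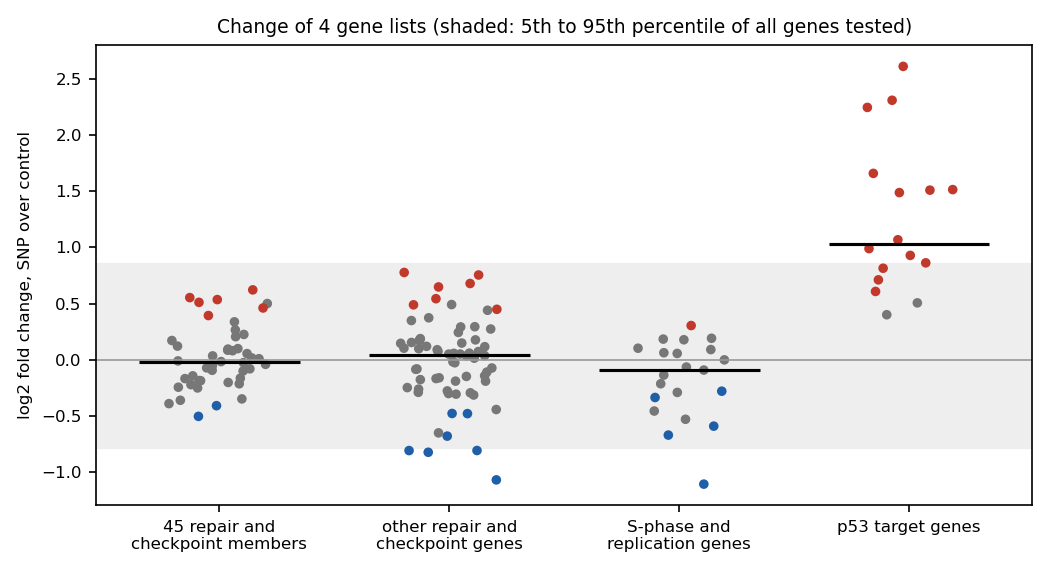
Log2 fold change, SNP over control, of each gene in 4 lists, with red for genes called higher, blue for genes called lower, grey for genes not called and a black bar at the median of the list. The shaded band spans the 5th to 95th percentile of all genes tested, from -0.79 to 0.85. The 45 members all lie inside it, and 8 of them were called. Of 16 p53 targets 14 were called higher, some inside the band, such as POLH at 0.61, and others above it, such as GADD45A at 2.61.

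Other genes of the same pathways were read from the same fit. Of 66 further repair and checkpoint genes, 7 were called higher (10.6% against 13.6% of all genes) and 7 lower (10.6% against 12.6%), with a median log2 fold change of 0.04. The widest changes among them were falls of H2AFX, the histone H2AX that is phosphorylated around breaks (log2 fold change -1.07, adjusted p = 1.6e-05 in edgeR), BABAM2 (-0.82, adjusted p = 8.4e-05) and MAD2L2 (-0.81, adjusted p = 0.0067) and FAAP100 (-0.81, adjusted p = 3.4e-04). BABAM2 belongs to the BRCA1-A complex, MAD2L2 to shieldin and FAAP100 to the Fanconi core. SMC5, part of a complex that holds chromatids during repair, rose from 91.5 and 88.6 CPM to 170 and 139 (log2 fold change 0.78, adjusted p = 4.8e-05). APTX, which cleans blocked DNA ends, rose from 23.4 and 23.3 CPM to 40.9 and 37.9 (0.75, adjusted p = 9.7e-04).

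Of 21 S-phase and replication genes 1 was called higher (4.76% against 13.6% of all genes) and 5 lower (23.8% against 12.6%). Their median log2 fold change was -0.09. CDT1, which licenses origins, fell from 89.6 and 85.2 CPM to 35.8 and 45.4, and RRM2, a subunit of the enzyme that makes deoxynucleotides, fell from 269 and 255 to 168 and 161. Of 16 p53 target genes 14 were called higher (87.5% against 13.6% of all genes) and none lower, with a median log2 fold change of 1.03. Between 13 and 16 of them were called higher in the 16 alternative fits. CDKN1A, the inhibitor of cyclin-dependent kinases, rose from 21.0 and 19.4 CPM to 78.3 and 114, and GADD45A, which p53 induces after damage, rose from 3.08 and 4.26 to 22.8 and 21.9. That p53 targets rise in these libraries was known when the list was made, so the count is a description. Against these, the 45 repair and checkpoint genes had a median of -0.02. Whether the levels of the 8 called genes followed the share of cells in S phase was not tested.

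The members also differed in base composition, and this moved with their changes. The G-minus-C content of a gene is the share of guanine minus the share of cytosine over its annotated transcripts, in percentage points. Its median was 2.45 over the members and 1.04 over all genes tested. Across the 45 members it correlated with the log2 fold change with a Spearman coefficient of 0.67 (Pearson 0.60), and across 14724 genes with one of 0.48. These are descriptions across genes that share the same 4 libraries. Among the 15 members with the lowest G-minus-C content, from -2.63 to 1.52, FANCD2 and BLM fell, none rose and the median log2 fold change was -0.21. Among the middle 15, from 1.68 to 2.80, RAD51C and RAD50 rose and the median was -0.04. Among the 15 highest, from 2.81 to 6.40, CLSPN, RNF168, RNF8 and LIG4 rose, none fell and the median was 0.12. CLSPN had the highest value of all members, 6.40. Over all genes tested, whatever their composition, 13.6% were called higher and 12.6% lower. Shares of all genes within these ranges were not computed, so the counts by range cannot be read as particular to the members.

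**Figure D4:**
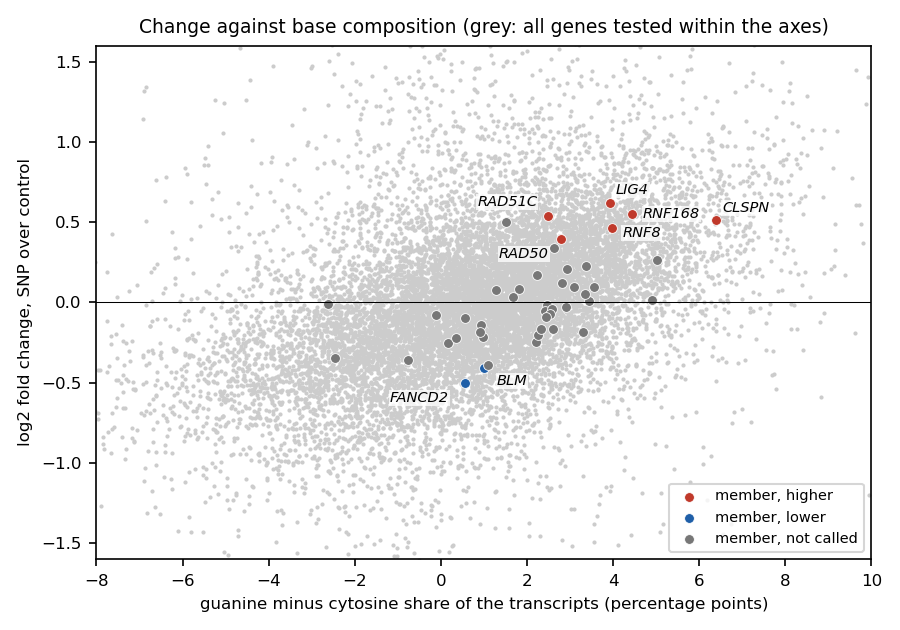
Log2 fold change, SNP over control, against G-minus-C content of the transcripts in percentage points, with all genes tested in grey and the members as larger points, red for higher, blue for lower and dark grey for not called. Members with a higher G-minus-C content tend to lie higher, as do genes in general. FANCD2 and BLM are the lowest members, though others, such as MDC1 and XRCC1, lie further left, and CLSPN is at the far right of the members.

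When the relation with length, GC and G-minus-C content was removed in each library, 2 members were called higher, RAD51C and MDC1, and 9 lower, ATM, ATR, BLM, BRCA2, BRIP1, FANCD2, FANCI, PRKDC and XRCC6. FANCD2, BLM and RAD51C were therefore called in the same direction with and without this adjustment, and RNF168, CLSPN, RAD50, RNF8 and LIG4 were not called with it. In that fit 2764 of 14759 genes were called in all, 1479 higher and 1285 lower. Of the 2764, 1962 were also among the 3861. The part of base composition in the 8 changes was not tested further.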

How the data were processed

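RNA of 4 SH-SY5Y libraries, 2 control and 2 SNP, was sequenced to a stated 40 M reads of 75 bp for each sample, per the labels. The aligner, counter and use of strand are not given in the sources used here. The genome build was GRCh38, per the submitters' processing notes. The expression column the authors deposited holds whole-number read counts per gene. The deposited TPM column sums to 1000000 per library and was used to compare levels between genes. The deposited RPKM column, per the file headers, was used only for the read total it implies, which was 48.7 to 62.0 M reads and exceeds both the summed counts and the stated 40 M.

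The tests were run in edgeR 4.0.16 (R 4.3.3) on the counts: filterByExpr (minimum count 10, minimum total 15), TMM scaling (factors 0.989 to 1.01), quasi-likelihood test of SNP against control with no covariate, Benjamini-Hochberg adjustment over 14759 genes, threshold 0.05. The CPM values of single genes are counts over TMM-scaled library sizes. The summed levels of lists and the floor of 3 counts are over the total counts without TMM. Alternatives used DESeq2 1.42.0, limma 3.58.1 (voom), other filters and scalings, the replicate letter as a block, leaving out each library, and per-library lowess offsets (span 0.5, 3 iterations, 2 cycles) on length, GC and G-minus-C content. Of these fits, only the edgeR test without a covariate and the one with all composition offsets were also run on simulated counts with known changes. Counts of replicate libraries differed by more than sampling noise (chi-square per degree of freedom 2.94 in control and 5.03 in SNP).

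Of the identifiers, 57980 were found in GENCODE 29, the source of positions, exon overlaps and composition. Merged exons are the annotated exons of all transcripts joined where they overlap. Upstream sequences came from RefSeq.

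Full statistics were given for called members and, in each of 9 roles, for the member with the widest change and the most abundant one, and up to 6 called genes of each other list could be named. The members, roles and lists were chosen with earlier results of these data known. Lists were described by counts and medians, with no set test. The mesenchymal list, of which 7 of 10 genes passed the filter, summed to 247 to 274 CPM. It had 2 higher (28.6%) and 1 lower (14.3%). The neuroblast list had 3 higher (27.3%) and 6 lower (54.5%) of 11 tested. Over all genes the shares were 13.6% and 12.6%.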

Additional observations from a re-analysis of the deposited data

How the results depend on the processing

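The results were recomputed in 16 alternative fits and at 2 stricter thresholds. With offsets for length and GC content 14 members were called, 7 of them lower, with a median log2 fold change of -0.087. With these offsets and the replicate block the values were 14, 7 and -0.082. Over all genes these fits called 28.5% and 30.1%, with 1994 and 2095 genes lower. With G-minus-C content added, 2 members were higher and 9 lower with a median of -0.16. The same counts of 2 and 9 and a median of -0.16 came with the replicate block. Over all genes, 1479 were higher and 1285 lower, and with the block 1390 and 1289. CLSPN then had a log2 fold change of -0.021, or -0.020 with the block, against 0.51. The read totals implied by RPKM gave 1 member lower and a median of 0.054, where all 14759 genes gave 1218 lower and a median of 0.064. The replicate block alone gave 4 of 45 members lower, BRIP1 and FANCA being added, where 2173 of 14759 genes were lower. That fit called 30.4% of all genes, against 26.2% in the main fit. Same-letter libraries share only a letter, and their deviations had a correlation of 0.050. Over all genes, 2415 were called by the Wald test of DESeq2, 2224 at an adjusted p under 0.01, and 647 when the log2 fold change also had to reach an absolute 1, a limit at which 0 members were called, 0 higher and 0 lower. Leaving out each library in turn gave 2447 to 4144 genes called in all, 3 to 10 members called, 1 to 6 higher and 1 to 4 lower, and a median from -0.077 to 0.047. Without control b only RNF168 was still called higher. The smaller groups have fewer residual degrees of freedom, and the lone library is assumed to vary like the other group. FANCD2 was called lower in all 16 fits. With 2 libraries a group and 5613144 to 8056550 counts, the scarce genes FANCE, FANCF, CHEK2 and XRCC4 had the widest intervals of the members.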
